A study of Mus musculus with 10 samples.

Results

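The 8 genes described here encode proteins that bind AU-rich elements, which are stretches of A and U in the 3′ untranslated region (UTR) of short-lived mRNAs. They are the Zfp36 family (Zfp36, Zfp36l1 and Zfp36l2), Elavl1, Khsrp, Hnrnpd, Tia1 and Tial1. They were chosen by name from 33393 genes, and all 8 were among the 12874 genes that were tested. RNA was sequenced from CD34- HSCs (Lineage-, Sca-1+, c-Kit+, CD34-, Flt3- cells) sorted from the bone marrow of individual C57BL/6 mice at 8 weeks of age. The control group was Reg1flox/flox (n = 5) and the other group was Vav1-iCre; Reg1flox/flox, labelled Reg1Δ/Δ (n = 5), so both groups carried the floxed Regnase-1 alleles and the iCre transgene was in the second group. The Vav1 promoter drives iCre in blood cells in general, not in HSCs alone. The libraries came from 2 experiments, with 3 per group in experiment 1 and 2 per group in experiment 2, and the comparison asked how the expression of these genes differed between the groups within each experiment.

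AU-rich elements are known for marking mRNAs of cytokines, growth regulators and early response genes for rapid decay. The Zfp36 proteins bind them through paired zinc fingers and recruit the CCR4-NOT deadenylase, which removes the poly(A) tail before decapping or degradation by the exosome. Elavl1 (HuR) usually stabilizes the mRNAs it binds, Khsrp and Hnrnpd (AUF1) are mostly associated with decay, and Tia1 and Tial1 (TIAR) are known for repressing translation and for stress granules. Regnase-1, encoded by Zc3h12a, is itself an RNase that degrades inflammatory mRNAs through stem-loops in the 3′ UTR. In blood stem and progenitor cells, Zfp36 family members are known for limiting proliferation and inflammatory signals.

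The 3 Zfp36 family mRNAs carry such elements themselves. One stretch of each is shown, since these genes both encode and carry the parts of this system, beside a stretch of the AU-rich element of Tnf, a classical Zfp36 target. Each line gives 29 bases of the mRNA strand of GENCODE M21 transcripts, 5′ to 3′, and the capitals mark TATTTAT, the core of the site that Zfp36 proteins bind.
Zfp36: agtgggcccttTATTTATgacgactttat
Zfp36l1: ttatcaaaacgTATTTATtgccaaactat
Zfp36l2: actatttaactTATTTATtatcttgtgaa
Tnf: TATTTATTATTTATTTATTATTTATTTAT
On the minus strand of GRCm38 these windows lie at chr7:28376966-28376994, chr12:80108422-80108450, chr17:84184914-84184942 and chr17:35199678-35199706, all within 3′ UTRs. For each gene the longest annotated 3′ UTR was searched on the sense strand, with overlapping matches counted, and the window holding most matches was printed. TATTTAT occurred 3 times in the 3′ UTR of each Zfp36 family member and 8 times in that of Tnf. The longer motif TTATTTATT, which contains it, occurred once in each of the 3 family members. Elavl1 had 8 TATTTAT in a UTR of 4218 bases, Tia1 and Tial1 had 1 each, and neither Khsrp nor Hnrnpd had a match in the annotated UTR. Of 21037 genes with an annotated 3′ UTR, 27.6% held TATTTAT and 7.66% held TTATTTATT. A match describes the letters and is not evidence of binding, and the transcript searched can be a minor one in these cells.

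Some features of the libraries bear on all values that follow. Values were TPM, a relative abundance per transcript length that sums to 1000000 in each library, so read depth is unknown. Zc3h12a was higher in the libraries labelled Reg1Δ/Δ (5.38 ± 3.75 TPM, SD, n = 5) than in controls (2.45 ± 2.03 TPM, SD, n = 5), which goes against the label, and whether its reads lie in the deleted part cannot be told from these values. This call was lost in 4 of 10 omissions of a library (control replicate 2 or replicate 1, 4 or 5 labelled Reg1Δ/Δ), and directions are given by label. In the study, qRT-PCR of CD34- HSCs sorted from Reg1Δ/Δ mice found Regnase-1 mRNA nearly absent. Coding transcripts held 46.2% to 49.1% of TPM in experiment 1 and 73.5% to 81.1% in experiment 2. Of 8 tested HSC markers, 7 were lower in the libraries labelled Reg1Δ/Δ, among them Hlf and Procr, whereas Ly6a, which encodes Sca-1, was not called (it was called higher without replicate 2 labelled Reg1Δ/Δ and in experiment 2 alone). The defining markers Procr and Hlf were at 0.108 to 2.72 TPM in these libraries and at 19.8 to 176 TPM in controls. Among all genes tested, limma with Benjamini-Hochberg adjustment (FDR under 0.05) called 15.0% higher and 37.9% lower in the libraries labelled Reg1Δ/Δ, and the median log2 fold change was -0.25. Of all calls, 28.4% were higher, against 59.4% after quantile normalization and 53.7% after median-of-ratios scaling, and these scalings moved the median of all genes by 0.40 and 0.30. Fold changes are on the log2(TPM + 1) scale, which understates differences of genes with low TPM.

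Of the 8 binders, 3 were lower in the libraries labelled Reg1Δ/Δ (Zfp36, Zfp36l2 and Tia1), 1 was higher (Elavl1), and Zfp36l1, Khsrp, Hnrnpd and Tial1 did not pass the test. These counts stand beside the background of 37.9% lower and 15.0% higher among all genes. The same 3 genes were lower without overlap of the groups within each experiment, as were 31.4% of all genes, and Elavl1 was higher without overlap, as were 12.7%. After quantile normalization 3 binders were higher and 3 lower, beside 30.0% and 20.5% of all genes, and after median-of-ratios scaling 4 were higher and 3 lower, beside 30.9% and 26.6%. In a limma fit without the experiment term 1 binder was lower and 0 were higher, beside 23.7% and 5.56% of all genes. With coding transcripts alone 2 were lower and 0 higher, beside 39.1% and 19.2% of all genes, and in experiment 2 alone 1 was lower and 0 higher, beside 12.3% and 3.51%. In each of these 3 fits 1 was higher at an unadjusted p under 0.05. The median log2 fold change of the 8 binders, -0.26, was close to that of all genes.

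**Figure D1:**
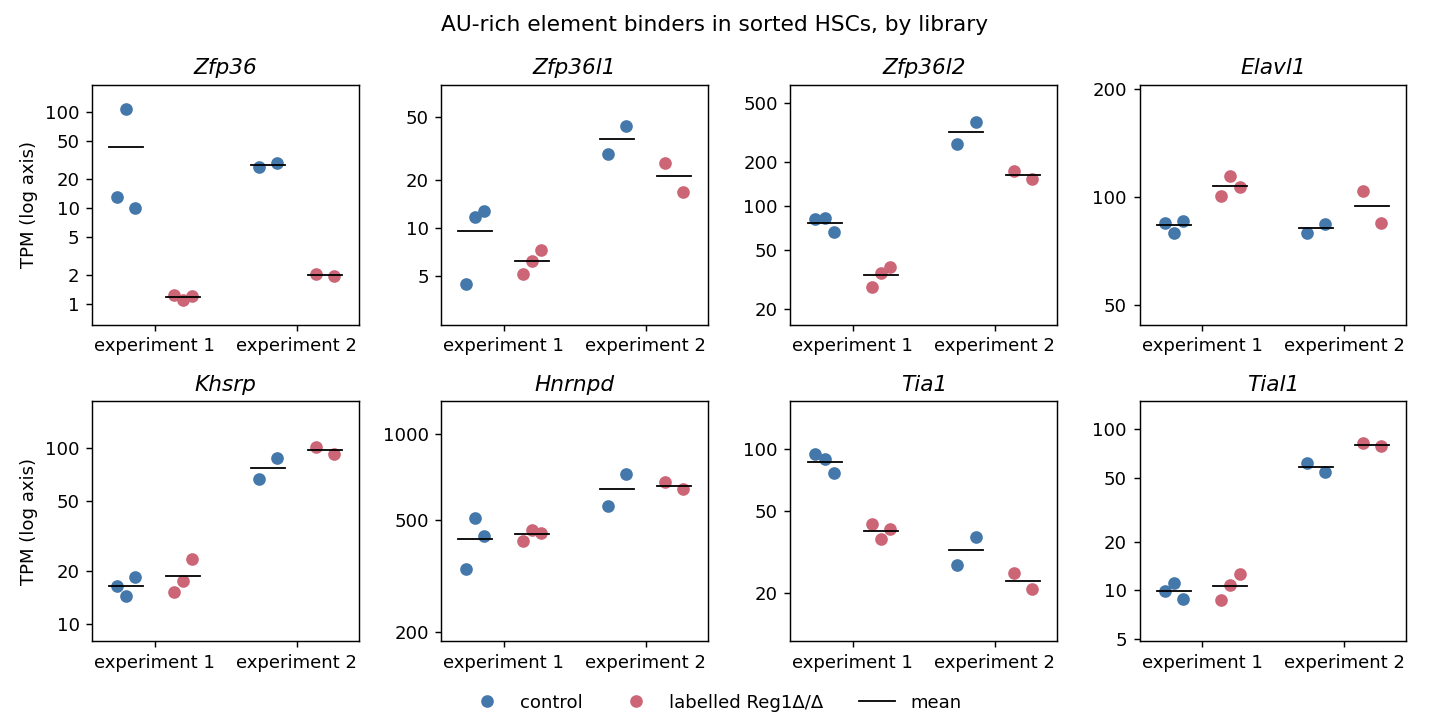
TPM of the 8 binders in each of the 10 libraries (vertical log axis), with controls in blue, libraries labelled Reg1Δ/Δ in red and black lines at the mean of each group within an experiment. Zfp36 lay at 10.1 TPM or above in every control and at 2.07 TPM or below in every library labelled Reg1Δ/Δ, and Khsrp and Tial1 differed more between experiments than between groups.

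Zfp36 (ENSMUSG00000044786, chr7:28376784-28380253, minus strand of GRCm38) encodes tristetraprolin, the founding member of the family and an early response gene. In the controls Zfp36 was at 13.1, 107 and 10.1 TPM in experiment 1 and at 26.7 and 29.4 TPM in experiment 2. The libraries labelled Reg1Δ/Δ had 1.23, 1.09 and 1.20 TPM of Zfp36 in experiment 1 and 2.07 and 1.96 TPM in experiment 2. The groups did not overlap, and control replicate 2 stood far above the other controls. The mean TPM of Zfp36 in the libraries labelled Reg1Δ/Δ was 2.70% of the control mean in experiment 1 (10.1% without control replicate 2) and 7.19% in experiment 2. Zfp36 fell by 3.44 on the log2 scale (SE 0.53, limma FDR 0.000472), a change lower than that of all but 130 of the tested genes. Without control replicate 2 the log2 fold change of Zfp36 was -2.86. Because these are bulk samples, fewer cells of a type and less RNA per cell cannot be told apart.

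Zfp36l2 (ENSMUSG00000045817, chr17:84183931-84187947, minus strand) had the highest mean TPM of the family in both groups and both experiments, although Zfp36 exceeded it in control replicate 2. Zfp36l2 was at 81.7, 83.5 and 66.5 TPM in the controls of experiment 1 and at 264 and 370.0 TPM in those of experiment 2. In the libraries labelled Reg1Δ/Δ, Zfp36l2 was at 28.1, 35.3 and 38.3 TPM in experiment 1 and at 174 and 152 TPM in experiment 2. Every library labelled Reg1Δ/Δ was below every control of its own experiment, although the second experiment ran higher throughout. The mean of Zfp36l2 was 43.9% of the control mean in experiment 1 and 51.4% in experiment 2, and the gene fell by 1.08 on the log2 scale (SE 0.14, limma FDR 0.000175). The call was lost in the second experiment alone (log2 fold change -0.94, limma FDR 0.0969), in which 12.3% of all genes were called lower and 3.51% higher.

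Zfp36l1 (ENSMUSG00000021127, chr12:80107754-80113013, minus strand), the third member expressed in these cells, was at 4.49, 11.7 and 12.8 TPM in the controls of experiment 1 and at 29.1 and 43.8 TPM in those of experiment 2. Values of Zfp36l1 in the libraries labelled Reg1Δ/Δ were 5.16, 6.24 and 7.27 TPM in experiment 1 and 25.7 and 16.8 TPM in experiment 2. The groups overlapped in experiment 1, where control replicate 1 was lowest of all, and did not overlap in experiment 2. The log2 fold change of Zfp36l1 was -0.58 (SE 0.27, limma FDR 0.0960), which did not pass. After quantile normalization it was -0.084 (limma FDR 0.844) and after median-of-ratios scaling -0.26 (limma FDR 0.434). Zfp36l1 passed only when control replicate 1 was left out (log2 fold change -0.82, limma FDR 0.00496), of the 10 libraries left out in turn.

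Within the family, the summed TPM of Zfp36, Zfp36l1 and Zfp36l2 in experiment 1 was 130.3 ± 62.5 for controls against 41.3 ± 6.23 for the libraries labelled Reg1Δ/Δ (SD, n = 3 each). In experiment 2 the sum was 381 ± 87.3 and 186 ± 21.9 TPM (SD, n = 2 each). Zfp36 made up 25.8% of the summed TPM in the controls of experiment 1 and 2.89% in the libraries labelled Reg1Δ/Δ, and 7.48% against 1.09% in experiment 2. The share of Zfp36 was thus smaller in every library labelled Reg1Δ/Δ than in any control of its experiment (p = 0.0167 by a two-sided exact permutation test that kept the experiments apart, the smallest p its 120 assignments give). The share of Zfp36l1 was 8.21% against 15.0% in experiment 1 and 9.49% against 11.3% in experiment 2 (exact permutation p = 0.0333). For Zfp36l2 the share was 66.0% against 82.1% and 83.0% against 87.6% (exact permutation p = 0.05). The 3 shares add up to the whole and are not independent, and these p-values are unadjusted. The exact permutation p of the Zfp36 share was 0.05 without replicate 1 labelled Reg1Δ/Δ and 0.0833 without replicate 2 or 3, and over the 10 omissions it reached at most 0.117 for Zfp36l1 and 0.217 for Zfp36l2. Without control replicate 2, the mean share of Zfp36 differed by -8.04 percentage points in place of -16.3, and that of Zfp36l2 by 4.11 in place of 11.5.

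Elavl1 (ENSMUSG00000040028, chr8:4285382-4325413, minus strand), encoding the stabilizing protein HuR, varied least among the controls. Elavl1 was at 84.5, 79.3 and 85.9 TPM in the controls of experiment 1 and at 79.1 and 84.2 TPM in those of experiment 2. In the libraries labelled Reg1Δ/Δ it was at 101, 114 and 107 TPM in experiment 1 and at 104 and 84.4 TPM in experiment 2. Each library labelled Reg1Δ/Δ was above the controls of its experiment, but replicate 5 exceeded the higher control by a margin far smaller than the spread. Elavl1 rose by 0.29 on the log2 scale (SE 0.10, limma FDR 0.0299), and its mean was 129% of the control mean in experiment 1 and 115% in experiment 2. This call was lost when any of 6 libraries was left out (control replicates 1, 2 and 3 or replicates 2, 3 and 4 labelled Reg1Δ/Δ), with log2 fold changes from 0.26 to 0.36 over all 10 omissions and a highest limma FDR of 0.0771. The log2 fold change of Elavl1 was 0.28 after quantile normalization (limma FDR 0.0304) and 0.64 after median-of-ratios scaling (limma FDR 0.000288).

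Khsrp (ENSMUSG00000007670, chr17:57021051-57031522, minus strand), encoding the decay factor KSRP, was at 14.4 to 18.6 TPM in the controls and 15.3 to 23.4 TPM in the libraries labelled Reg1Δ/Δ of experiment 1. In experiment 2 Khsrp was at 66.0 and 87.3 TPM in controls and at 101 and 91.5 TPM in the libraries labelled Reg1Δ/Δ. The control mean was thus 4.64 times that of experiment 1, while the groups overlapped in experiment 1. The log2 fold change of Khsrp between the groups was 0.23 (SE 0.14, limma FDR 0.198).

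Hnrnpd (ENSMUSG00000000568, chr5:99955935-99978938, minus strand), encoding AUF1, had the highest TPM of the 8 genes in both groups and both experiments. Hnrnpd was at 335, 506 and 438 TPM in the controls and at 421, 459.9 and 449 TPM in the libraries labelled Reg1Δ/Δ of experiment 1. In experiment 2 the values were 557 and 724 TPM in controls and 677 and 641 TPM in the libraries labelled Reg1Δ/Δ. In both experiments the libraries labelled Reg1Δ/Δ lay within the range of the controls, and the log2 fold change of Hnrnpd was 0.07 (SE 0.13, limma FDR 0.694).

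Tia1 (ENSMUSG00000071337, chr6:86404219-86433405, plus strand) and Tial1 (ENSMUSG00000030846, chr7:128439777-128461717, minus strand) encode closely related proteins. Tia1 was at 93.9, 89.3 and 76.2 TPM in the controls and at 42.9, 36.3 and 40.5 TPM in the libraries labelled Reg1Δ/Δ of experiment 1. In experiment 2 Tia1 was at 27.4 and 37.4 TPM in controls and at 24.8 and 20.9 TPM in the libraries labelled Reg1Δ/Δ. The groups of Tia1 did not overlap in either experiment, with a wide gap in the first and a narrow one in the second. Tia1 fell by 0.85 on the log2 scale (SE 0.16, limma FDR 0.00138), by 1.09 in experiment 1 alone (limma FDR 0.00119, with 38.3% of all genes lower and 12.0% higher), and had a log2 fold change of -0.47 in experiment 2 alone (limma FDR 0.242). The log2 fold change of Tia1 was -0.69 after quantile normalization (limma FDR 0.00364) and -0.50 after median-of-ratios scaling (limma FDR 0.0105). Tial1 was at 8.85 to 11.2 TPM in controls and 8.72 to 12.6 TPM in the libraries labelled Reg1Δ/Δ of experiment 1. In experiment 2 Tial1 was at 62.1 and 54.6 TPM in controls and at 82.4 and 78.2 TPM in the libraries labelled Reg1Δ/Δ. Tial1 overlapped in experiment 1 and not in experiment 2, and its log2 fold change was 0.23 (SE 0.13, limma FDR 0.161). After quantile normalization or median-of-ratios scaling, Khsrp (log2 fold change 0.49 or 0.57) and Tial1 (0.62 or 0.56) passed as higher, and Hnrnpd was at -0.04 without a call or passed as higher at 0.42.

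**Figure D2:**
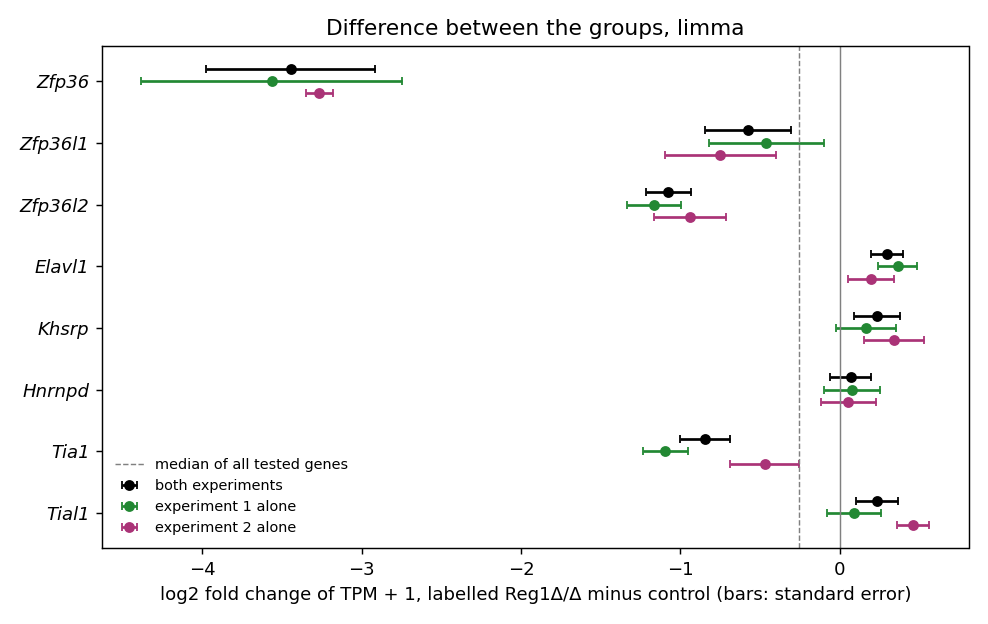
Log2 fold change of TPM + 1, libraries labelled Reg1Δ/Δ minus control, from limma for each binder in both experiments together (black), experiment 1 alone (green) and experiment 2 alone (purple), with bars for the standard error and a dashed line at the median of all tested genes, -0.25. Zfp36, Zfp36l1, Zfp36l2 and Tia1 lay below zero and the other 4 genes above it in each fit, and Zfp36 stood farthest from zero.

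The effect of the group was compared between the experiments by an interaction term in limma. No binder passed (FDR from 0.370 for Tia1 to 0.983 for Hnrnpd), and 1 of 8, Tia1, had an unadjusted p under 0.05. Among all genes, 0.443% passed this test.

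The order of the levels changed between the groups and between the experiments. In the controls of experiment 1 Hnrnpd (mean 426 TPM) was followed by Tia1, Elavl1 and Zfp36l2 (86.5, 83.2 and 77.2 TPM), neighbours whose ranges overlapped. Zfp36 (43.4 TPM, or 11.6 TPM without control replicate 2) overlapped both Zfp36l2 above it and Khsrp (16.5 TPM) below it, and Tial1 and Zfp36l1 (9.98 and 9.66 TPM) were not separated either. In the controls of experiment 2 Zfp36l2 (317 TPM) came second, clear of its neighbours, and Zfp36 (28.0 TPM) came last with a range overlapping that of Tia1. Among the libraries labelled Reg1Δ/Δ, Zfp36 was last in both experiments, below Zfp36l1 without overlap.

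The gene totals combine transcripts of different kinds. The 8 genes had 62 annotated transcripts, of which 26 were coding and 32 were tested. limma called 5 of the 32 lower and 0 higher in the libraries labelled Reg1Δ/Δ (1 was higher at an unadjusted p under 0.05), beside 14.9% lower and 6.4% higher among 31937 tested transcripts. Without the experiment term limma called 1 lower and 0 higher (0 higher at an unadjusted p under 0.05 too), beside 5.89% and 0.77% of all transcripts. Of the 5, 3 were coding, namely both Zfp36 transcripts and the single Zfp36l2 transcript. The other two were a Hnrnpd transcript annotated for nonsense-mediated decay (log2 fold change -1.64, limma FDR 0.000795) and a processed Tia1 transcript without a coding sequence (log2 fold change -1.30, limma FDR 0.0373). Of the Zfp36 transcripts, that of 2465 bases had a mean of 37.8 TPM in the controls of experiment 1 (10.2 TPM without control replicate 2) and 0.712 TPM in the libraries labelled Reg1Δ/Δ. The Zfp36 transcript of 2790 bases was at 17.3 TPM against 1.91 TPM in experiment 2.

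For Tia1, coding transcripts held 12.2% to 14.9% of the gene's TPM in the controls of experiment 1 and 15.2% to 25.7% in the libraries labelled Reg1Δ/Δ. In experiment 2 the coding share was 46.6% and 61.7% in controls and 67.2% in both libraries labelled Reg1Δ/Δ. Most of the Tia1 signal of experiment 1 was therefore in transcripts annotated as non-coding, with retained introns or for nonsense-mediated decay. The coding share of Tia1 differed by 9.89 percentage points (SE 3.20, limma FDR 0.348), which did not pass. With coding transcripts alone, the log2 fold change of Tia1 was -0.33 and the call was lost (limma FDR 0.0514), while 39.1% of all genes were lower and 19.2% higher on that basis.

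Hnrnpd showed a similar contrast between the experiments, with coding shares of 50.2% to 55.3% in experiment 1 and 92.8% to 95.8% in experiment 2, and no separation of the groups. Most of the Elavl1 TPM was in a transcript of 2317 bases (mean 72.3 TPM in controls and 91.5 TPM in the libraries labelled Reg1Δ/Δ of experiment 1). The Elavl1 transcript of 5743 bases, whose 3′ UTR held the 8 TATTTAT counted above, was at 1.65 and 0.872 TPM. For Hnrnpd, Tia1 and Tial1, the transcripts whose 3′ UTRs were searched had means of 0.548, 1.86 and 0.457 TPM in the same controls. In the controls of experiment 2 these were 2.88, 4.04 and 3.84 TPM. With coding transcripts alone the rise of Elavl1 was not called (log2 fold change 0.24, limma FDR 0.0625). Of 4 binders with both kinds of transcript, 0 passed limma's test of the coding share (1, Tia1, at an unadjusted p under 0.05), and 0.182% of 8228 genes did. The difference in coding share between the experiments runs through the libraries as a whole, and its part in these totals was not tested.

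**Figure D3:**
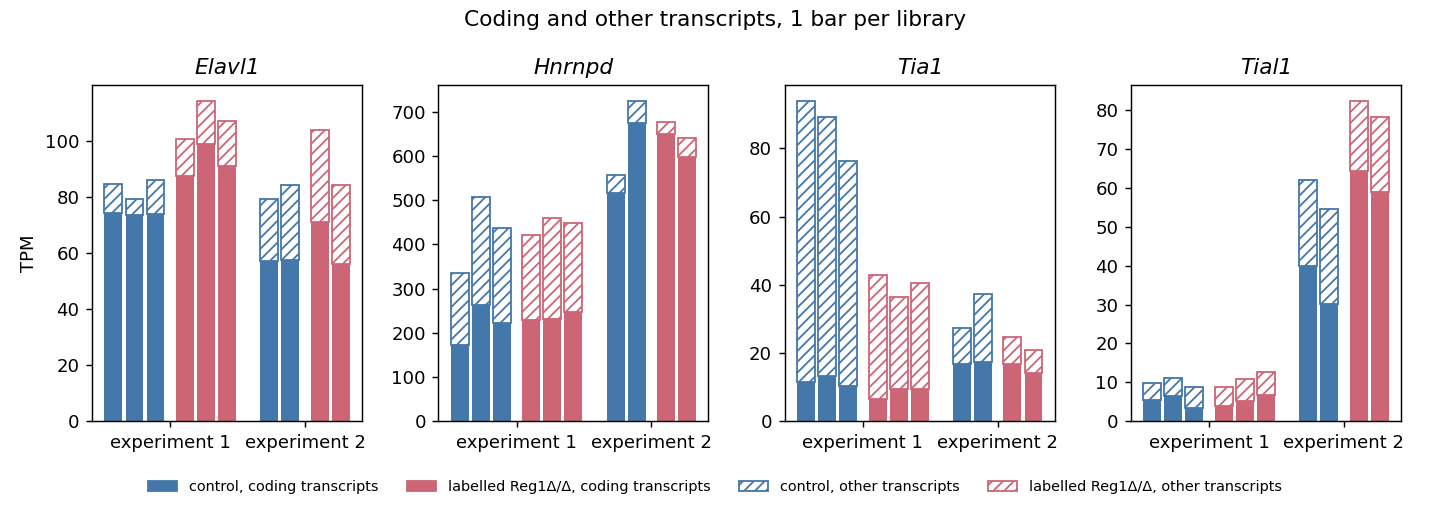
TPM in coding transcripts (filled) and other annotated transcripts (hatched) of Elavl1, Hnrnpd, Tia1 and Tial1, 1 bar per library, controls in blue and libraries labelled Reg1Δ/Δ in red. In experiment 1 coding transcripts held at most 25.7% of Tia1 and 55.3% of Hnrnpd in any library, and in experiment 2 at least 46.6% and 92.8%.

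The enzymes and cofactors through which AU-rich element binders act were examined next. The lists were other binders, regulators of Zfp36 phosphorylation, deadenylation, decapping, and the exosome with the Ski complex, 64 genes in all. Of 61 tested, 14 were higher and 20 lower, against 15.0% and 37.9% of all genes, with a median log2 fold change of -0.13 beside -0.25 over all genes. After quantile normalization 20 were higher and 17 lower, beside 30.0% and 20.5% of all genes. With median-of-ratios scaling, which raised the share of higher calls among all genes to 30.9% and lowered that of lower calls to 26.6%, 26 were higher and 12 lower.

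Zfp36 protein is known to be phosphorylated by the p38 (Mapk14) and MK2 (Mapkapk2) kinases, which stabilizes it and weakens its recruitment of deadenylases, and to be bound by 14-3-3 proteins. Of 11 genes tested in this list, 7 were lower and 0 higher by limma, beside 37.9% and 15.0% of all genes. At an unadjusted p under 0.05, 8 were lower and 0 higher. The list median was -0.35 on the log2 scale, beside -0.25 for all genes. Dusp1, a phosphatase that switches off p38, fell by 3.57, Mapkapk3 by 0.90 and Mapkapk2 by 0.76 on the log2 scale (limma FDR 0.00110, 0.00111 and 0.000236). Without control replicate 2 the log2 fold change of Dusp1 was -2.88. Mapkapk2 was at 79.9 to 92.4 TPM in the 5 controls and at 44.9 to 56.5 TPM in the 5 libraries labelled Reg1Δ/Δ, without overlap. After quantile normalization 1 gene of this list was higher and 8 were lower, beside 30.0% and 20.5% of all genes. With median-of-ratios scaling 2 were higher and 4 lower, beside 30.9% and 26.6% of all genes.

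Among 17 genes of deadenylation, 9 were lower and 2 higher, beside 37.9% and 15.0% of all genes. Their median log2 fold change was -0.35, beside -0.25 for all genes. After quantile normalization 8 were lower and 3 higher, and after median-of-ratios scaling 6 were lower and 4 higher, beside 20.5% and 30.0% of all genes and 26.6% and 30.9%. The genes with the largest falls encode antiproliferative adaptors of the deadenylase and one of its catalytic subunits, namely Btg2 (-2.90), Btg1 (-1.67) and Cnot6l (-1.35, limma FDR 0.00117). Btg1 was at 19.98 to 42.4 TPM in controls and at 7.36 to 9.92 TPM in the libraries labelled Reg1Δ/Δ. The subunits Cnot9 (0.43, limma FDR 0.00723) and Cnot10 (0.29, limma FDR 0.04997) were higher, the call of Cnot10 being lost in 9 of 10 omissions of a library. Of 10 decapping genes, 3 were lower (Ddx6 -0.71, Patl1 -0.51 and Dcp1b -0.32), beside 37.9% of all genes. Only Lsm1 was higher (0.37, a call lost in 7 of 10 omissions), beside 15.0% of all genes. The list median was -0.20 on the log2 scale. After quantile normalization 0 genes of this list were called lower and 3 higher, and after median-of-ratios scaling 1 was lower and 2 were higher, beside 20.5% lower and 30.0% higher among all genes for the first and 26.6% and 30.9% for the second.

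The exosome degrades RNA from the 3′ end. Of 14 genes of the exosome and the Ski complex, 10 were higher and 0 lower by limma, beside 15.0% and 37.9% of all genes. At an unadjusted p under 0.05, 10 were higher and 1 lower. The list median was 0.44 on the log2 scale. The largest rises were those of Exosc8 (0.93, limma FDR 0.000282), Exosc1 (0.68) and the catalytic subunit Dis3 (0.65). Exosc8 was at 151 to 173 TPM in the 5 controls and at 315 to 389 TPM in experiment 1 and 243 to 256 TPM in experiment 2 in the libraries labelled Reg1Δ/Δ. After quantile normalization 11 of the 14 were higher, and after median-of-ratios scaling 12 were, with 0 lower in both, beside 30.0% and 30.9% higher among all genes. Without control replicate 2, 8 of the 14 were higher and 1 lower, beside 1646 and 4596 of the 12874 genes tested. Of 9 other AU-rich element binders tested, Hnrnpab was higher (0.42, limma FDR 0.00408) and Elavl4 lower (-2.07), and 7 were not called. Among all genes 15.0% were higher and 37.9% lower. Quantile normalization called 2 of the 9 higher and 1 lower, and median-of-ratios scaling 6 higher and 1 lower, beside 30.0% and 20.5% of all genes and 30.9% and 26.6%. Elavl4 was below the level set for naming and was added after its values were seen. Its highest control was at 7.19 TPM.

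**Figure D4:**
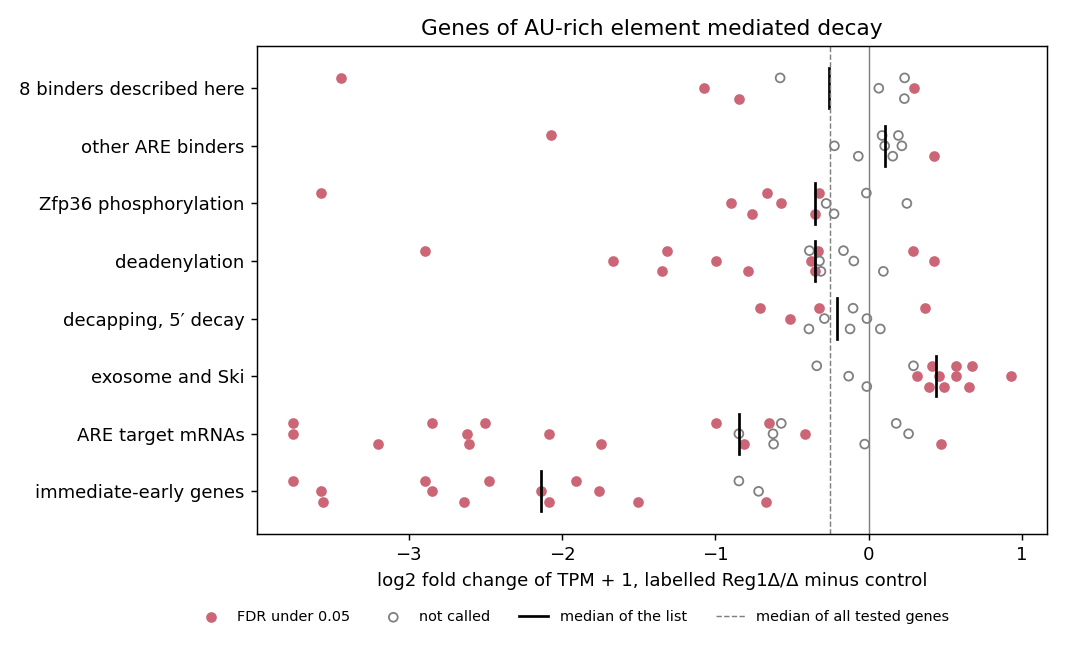
Log2 fold change of TPM + 1, libraries labelled Reg1Δ/Δ minus control, for each tested gene of the decay lists (1 circle per gene, filled where limma FDR was under 0.05), with black bars at list medians and a dashed line at the median of all tested genes. The exosome list had its median at 0.44 and the immediate-early list at -2.13.

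A list of mRNAs described as carrying AU-rich elements or as targets of these proteins was examined as well. Of 34 genes 32 were found in the files and 21 were tested, and Tnf, Csf2, Il6 and most other cytokines of the list were under the expression limit. Of the 21, 13 were lower and 1 higher, beside 37.9% and 15.0% of all genes. Their median log2 fold change was -0.85, beside -0.25 for all genes. The list holds transcription factors, cyclins and survival factors beside cytokines. Fos (-3.75), Ets1 (-3.75) and Ccl3 (-3.20) had the largest falls, and Myc rose (0.47, limma FDR 0.0124). Without control replicate 2 the log2 fold changes of Fos and Ccl3 were -2.65 and -2.63, no longer among the 3 largest falls, while that of Ets1 was -3.74. Of the 21 genes, 4 are immediate-early genes too, and without them 10 of 17 were lower and 1 higher, with a median of -0.65. In the longest annotated 3′ UTR, Fos held 2 TATTTAT and Ccl3 held 1, whereas Ets1 and Myc held 0. The motif was in 15 of the 21 genes, of which 10 were lower and 0 higher by limma (11 lower and 0 higher at an unadjusted p under 0.05), and 3 of the 6 without it were lower and 1 higher. Among all tested genes with an annotated 3′ UTR, 45.9% of those with the motif were lower and 12.3% higher, and 38.9% of those without it were lower and 18.3% higher. Ets1, a lymphoid transcription factor, was at 9.43 to 46.9 TPM in controls and at 0.331 to 1.62 TPM in the libraries labelled Reg1Δ/Δ. Myc was at 152 to 225 TPM in controls and at 229.8 to 287 TPM in the libraries labelled Reg1Δ/Δ. After quantile normalization 3 genes of this list were higher and 10 lower, beside 30.0% and 20.5% of all genes, and after median-of-ratios scaling 3 and 11, beside 30.9% and 26.6%.

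Across the 10832 tested genes with an annotated 3′ UTR, those with TATTTAT (3167 genes) had a median log2 fold change of -0.36, and those without it -0.21. The median of the 404 genes with 3 or more TATTTAT was -0.42. UTR length moved with the motif, with medians of 845 bases without it, 2111 bases with it and 3246 bases with 3 or more, and the part of length in the difference was not tested.

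Zfp36 is itself an immediate-early gene, one of those induced rapidly and transiently after stimulation. Of 15 other immediate-early genes tested, 13 were lower and 0 higher by limma, beside 37.9% and 15.0% of all genes. The counts were 13 and 0 at an unadjusted p under 0.05 too. The list median was -2.13 on the log2 scale. After quantile normalization 10 were lower and after median-of-ratios scaling 11, beside 20.5% and 26.6% of all genes. Their largest falls were those of Fos (-3.75), Dusp1 (-3.57) and Dusp2 (-3.56). Fos was at 7.28, 345 and 3.35 TPM in the controls of experiment 1, at 9.35 and 10.1 TPM in those of experiment 2, and at 0.0759 to 0.525 TPM in the libraries labelled Reg1Δ/Δ. Control replicate 2 had the highest value of the 5 controls for 16 of 21 genes of the list, with Fos at 34.2 times, Dusp1 at 10.3 times and Zfp36 at 3.65 times the next control. Without this library 13 genes of the list were lower and the list median was -1.71, with Dusp2 at -3.31, Dusp1 at -2.88 and Fos at -2.65. The summed TPM of the 21 genes was 306 to 1919 in controls of experiment 1, 323 to 347 in controls of experiment 2 and 97.8 to 127 in the libraries labelled Reg1Δ/Δ.

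**Figure D5:**
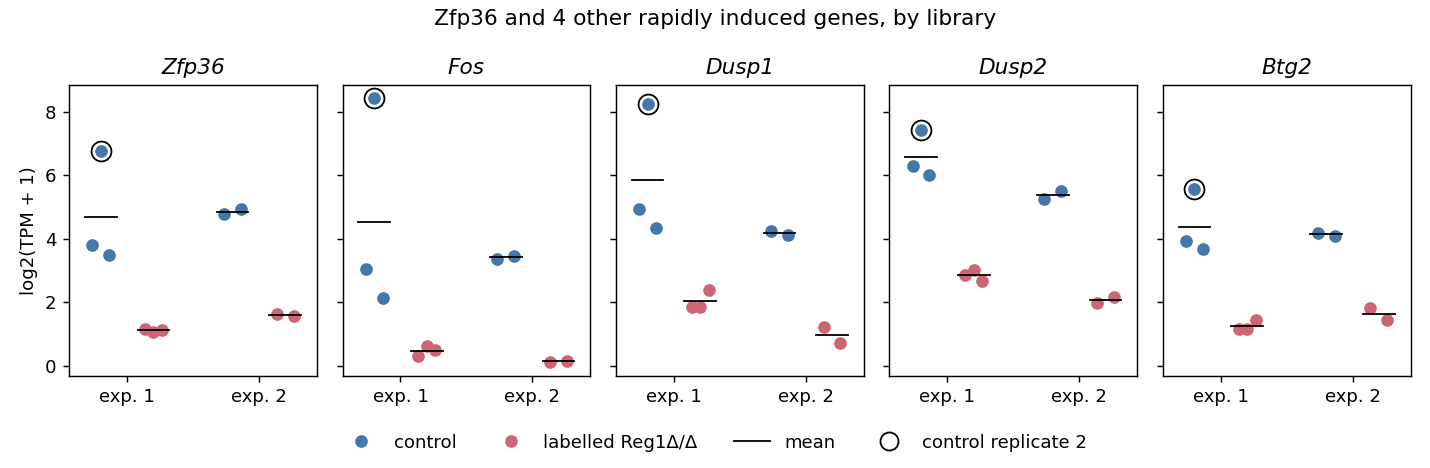
Log2(TPM + 1) of Zfp36, Fos, Dusp1, Dusp2 and Btg2 in each library, controls in blue, libraries labelled Reg1Δ/Δ in red, black lines at the means, and control replicate 2 circled. The circled library was the highest control for all 5 genes, and every library labelled Reg1Δ/Δ was below every control.

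Likeness to the family members was described by Pearson's r over the 10 libraries, after centring log2(TPM + 1) within experiments, among 8143 genes with a mean of at least 10 TPM over all libraries. Both groups are included, so r reflects the group difference as well as the spread within groups. The genes most like Zfp36 were Rgs2 (r = 0.995), a regulator of G protein signalling, Dusp1 (0.994) and Btg2 (0.987). Those most like Zfp36l2 were Crk (0.994), Gnai2 (0.994) and Chp1 (0.992), and those most like Zfp36l1 were Mbnl3 (0.929), Zfp143 (0.922) and RP23-285C18.2 (0.913). Rgs2 had a mean of 65.7 TPM in controls (32.3 TPM without control replicate 2) and 2.46 TPM in the libraries labelled Reg1Δ/Δ.

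Markers of other cell types moved with the same group contrast. Their counts stand beside 37.9% lower and 15.0% higher among all genes. Cd34 and Flt3, for which the sort was negative, were both lower, with a summed level of 158 to 270.4 TPM in the controls and 14.3 to 22.0 TPM in the libraries labelled Reg1Δ/Δ of experiment 1, and of 62.9 to 96.7 TPM and 10.7 to 15.1 TPM in experiment 2. B-lineage markers, which the Lineage gate should remove, were lower for all 7 tested of 8, with a summed level of 145 to 1205 TPM in controls and 2.34 to 20.3 TPM in the libraries labelled Reg1Δ/Δ. Neutrophil-lineage markers were lower for 5 of 8, with sums of 2808 to 12509 TPM in controls and 305 to 1065 TPM in the libraries labelled Reg1Δ/Δ. The defining markers Cd79a and S100a9 were at most 1.74 and 107 TPM in the libraries labelled Reg1Δ/Δ. Erythroid Klf1 and Epor were higher and 4 of the 7 erythroid markers lower, all 5 megakaryocyte markers were lower, and the single T-lineage marker tested was lower. The part of these cell types in the differences of the 8 binders was not tested.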

How the data were processed

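RNA of sorted CD34- HSCs from 10 mice was used. The authors prepared cDNA libraries with a SMART kit (labels and study name different versions), aligned reads to GRCm38 with STAR, estimated TPM per transcript with Salmon 0.9.1, per the labels, and deposited log2(TPM + 1) values on the log2 scale. From these, TPM was recovered and summed per gene identifier. TPM keeps no read numbers, so depth is unknown and no counting intervals could be given. Transcript names in the files resemble an older annotation than the release the study names. The values of replicate 5 labelled Reg1Δ/Δ carry the name of replicate 4 in their header but differ from them, and were used as replicate 5.

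Groups came from the labelled genotypes, and experiments from the sample names together with the numbers per group that the study states for each experiment. Genes reaching 1 TPM or more in 5 or more libraries were tested with limma 3.58.1 (R 4.3.3; lmFit and eBayes) on log2(TPM + 1), with experiment as a covariate and Benjamini-Hochberg adjustment over all genes tested (FDR under 0.05). Transcripts and coding shares were tested likewise. Shares within the Zfp36 family were compared by an exact permutation test within experiments. The limma p-values set the difference between the groups against the spread between these samples that the fit leaves. The exact p-values set the difference against all reassignments of the groups within experiments. The fits were tested on simulated data.

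Members and lists were chosen with earlier results of these data known. One HSC marker is not reported here. Named genes were the 8 binders, Zc3h12a, up to 3 genes per direction of each list (largest log2 fold change among those called, mean of at least 5 TPM in the higher group), and the 3 genes most like each Zfp36 family member. Coordinates and 3′ UTR sequences are from GENCODE M21 on GRCm38. The alternatives were the experiments fitted singly, omission of the experiment term, no filter or 1 TPM required in every library, a pseudocount of 0.1, scaling by quantiles or by the median of ratios, a trend in eBayes, a replicate block, coding transcripts alone and each library left out in turn. Python 3.11.15 was used for tables and plots.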

Additional observations from a re-analysis of the deposited data

Results flagged for a closer look

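The Zfp36 and Zc3h12a values of single controls stood apart from the other 4 in their group by Dixon's criterion, among 18 groups of 5 that were checked. Chance alone would mark 0.9 of 18 groups whose libraries share 1 distribution, a figure that does not take into account that each group here joins 2 experiments with different levels. Zfp36 was at 107 TPM in control replicate 2, with the nearest control at 29.4 TPM. Zc3h12a was at 6.07 TPM in control replicate 5, with the nearest control at 1.83 TPM. Control replicate 5 belongs to experiment 2, in which the libraries labelled Reg1Δ/Δ were also highest for Zc3h12a.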

How the results depend on the processing

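Zfp36 was called lower in all 11 alternative settings and all 10 omissions of a library (log2 fold change -4.05 to -2.86). Without the experiment term, calls were lost for Zfp36l2 (-1.08), Elavl1 (0.29), Tia1 (-0.85) and Zc3h12a (0.83), leaving 0 binders higher and 1 lower, 5 decay genes higher and 11 lower, and 1 binder transcript lower. Experiment 2 alone lost Zfp36l2 (-0.94), Elavl1 (0.20), Tia1 (-0.47) and Zc3h12a (1.30), with 0 binders higher and 1 lower, 3 decay genes higher and 4 lower, and 0 AU-rich targets higher and 8 lower. Experiment 1 alone lost Zc3h12a (0.52), had 8 decay genes higher, and turned the coding share of Tial1 to -1.80 percentage points. Zc3h12a was not called without a filter (0.83). Requiring 1 TPM in every library, 8 AU-rich targets were lower, since fewer genes were tested. Coding transcripts alone lost Elavl1 (0.24) and Tia1 (-0.33), with 0 binders higher. Quantile normalization called Khsrp (0.49) and Tial1 (0.62), turned the uncalled Hnrnpd to -0.041, and gave 3 binders and 3 targets higher. Median-of-ratios scaling called Khsrp (0.57), Hnrnpd (0.42) and Tial1 (0.56), with 4 binders, 26 decay genes and 3 targets higher and 12 decay genes lower. The cause was not tested where none is given.

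Leaving out each library in turn gave -0.82 to -0.46 for Zfp36l1, -1.17 to -0.996 for Zfp36l2, 0.26 to 0.36 for Elavl1, 0.15 to 0.31 for Khsrp, -0.024 to 0.14 for Hnrnpd, -0.97 to -0.78 for Tia1, 0.17 to 0.32 for Tial1 and 0.53 to 0.99 for Zc3h12a. The negative value of Hnrnpd, -0.024, came without control replicate 1. Zc3h12a was not called without control replicate 2 or without replicate 1, 4 or 5 labelled Reg1Δ/Δ. The binders called were 0 to 1 higher and 3 to 4 lower. Differences in family share ranged from -19.6 to -8.04 percentage points for Zfp36, 3.57 to 6.30 for Zfp36l1 and 4.11 to 15.5 for Zfp36l2. The exact p of the Zfp36 share was 0.05 without replicate 1 labelled Reg1Δ/Δ and 0.0833 without replicate 2 or 3, that of Zfp36l1 rose above 0.05 in 6 omissions (control replicates 4 and 5 and replicates 1 to 4 labelled Reg1Δ/Δ, highest 0.117), and that of Zfp36l2, 0.05 with all libraries, rose in 6 omissions (control replicates 4 and 5 and replicates 1, 2, 3 and 5 labelled Reg1Δ/Δ, highest 0.217) and fell to 0.0167 without control replicate 1.

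No clear pairing by replicate number was seen, with correlations of same-numbered deviations of 0.03, 0.18 and 0.07 in experiment 1 and -0.05 in experiment 2. With 2 libraries per group, deviations from the group mean mirror each other, so experiment 2 cannot decide the question. In experiment 1, 2 of 3 numbers correlated best with their own number. With a replicate block Elavl1 (0.29, limma FDR 0.0744) and Zc3h12a (0.83, limma FDR 0.0505) were not called and 0 binders were higher, with no other call on a binder changed. TPM without read numbers limits what can be said of genes near 1 TPM, Zfp36 in the libraries labelled Reg1Δ/Δ among them.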
